A study of Mus musculus with 6 samples.

Results

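The constant region genes of the immunoglobulins were followed by class in RNA from the femoral bone of mice. They were taken as the rows of the tables whose symbol was on a list of 10: the heavy chain genes Ighm, Ighd, Ighg1, Ighg2b, Ighg2c, Ighg3 and Igha, and the light chain genes Igkc, Iglc1 and Iglc2. All 10 were found, each under 1 gene ID, among 55484 genes, and all 10 were among the 15508 genes that the authors tested. The study compared 3 male mice housed alone with free access to a running wheel (ND/WCR, treatment label NW) with 3 male mice housed alone in cages without a wheel (ND/SED, label NS). All 6 mice were wild-type C57BL/6 on normal chow, entered the groups at 6 weeks of age, stayed in them for 6 weeks and were 12 weeks old at the end. What was deposited is a single pooled FPKM for each group (fragments scaled to transcript length and library size), with an interval whose level is not stated, so no value of a single mouse and no SD between mice can be given. A gene is called here when the q-value of the authors' deposited table lies under 0.05, and log2 folds, on the log2(FPKM + 0.1) scale, set running mice over sedentary mice.

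An antibody is built from heavy chains and light chains. The constant region of the heavy chain sets its class: a B cell first makes IgM and IgD from 1 long transcript by alternative processing, and class switch recombination then replaces these by IgG, IgE or IgA by cutting out the DNA in between. The light chain is kappa or lambda. Bone marrow holds B cell precursors, mature recirculating B cells, and long-lived plasma cells that secrete antibody, and plasma cells hold far more immunoglobulin mRNA per cell than other B cells.

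Each heavy chain gene has 2 annotated transcripts, and levels per gene do not separate secreted from membrane forms. The heavy chain genes lie on the minus strand of chromosome 12 in the order Ighm, Ighd, Ighg3, Ighg1, Ighg2b, Ighg2c, Ighe and Igha, over chr12:113254830-113422730 in GRCm38, from the start of Igha to the end of Ighm. Igkc is a single exon at chr6:70726435-70726966 on the plus strand. Iglc1 (chr16:19061618-19062071) and Iglc2 (chr16:19198396-19200351) lie on the minus strand of chromosome 16. In the authors' tables Igkc and Iglc1 carry a wider locus than their own gene, since each overlaps a noncoding gene. The noncoding gene that overlaps Igkc, Gm30211, stood at 1.26 FPKM in running and 1.27 FPKM in sedentary mice, and 2010309G21Rik, opposite to Iglc1, was listed at 0 in both groups.

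The 4 IgG genes differ in sequence, as their hinge exons show, which encode the flexible stretch between the arms and the stem of the antibody. They are shown from the GENCODE vM21 transcripts (GRCm38, minus strand), with in-frame cysteine codons in capitals. The cysteines of the hinge include those that form the bridges between the heavy chains.
Ighg3, chr12:113360529-113360576: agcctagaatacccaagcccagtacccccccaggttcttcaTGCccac
Ighg1, chr12:113329844-113329882: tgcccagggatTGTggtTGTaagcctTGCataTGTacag
Ighg2b, chr12:113307261-113307326: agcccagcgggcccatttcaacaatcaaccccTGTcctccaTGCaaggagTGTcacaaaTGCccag
Ighg2c, chr12:113288263-113288325: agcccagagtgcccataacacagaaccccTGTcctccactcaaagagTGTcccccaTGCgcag
The exons were 48, 39, 66 and 63 bases long and held 1, 4, 4 and 3 whole cysteine codons, in the order shown. Over the whole secreted coding sequence Ighg2b and Ighg2c were the closest pair of heavy chain genes, with 85.7% identical aligned positions. Of the 50-base stretches in the transcripts of Ighg2c, 94.5% were found in no other gene searched, and of those of Ighg2b 95.9%, while every 100-base stretch of the 10 genes was found in 1 gene only. No source used here gives the read length or the handling of fragments that match several genes.

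Secreted IgM and IgA end in a tailpiece whose cysteine, the codon before the last, binds the joining chain (the product of Jchain) that links the units of polymeric antibody. IgG has no such tail. The last 54 coding bases before the stop codon are shown for both and, for contrast, for Ighg2c, again with cysteine codons in capitals.
Ighm, chr12:113420870-113420923: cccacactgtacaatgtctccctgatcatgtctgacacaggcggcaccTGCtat
Igha, chr12:113258771-113258824: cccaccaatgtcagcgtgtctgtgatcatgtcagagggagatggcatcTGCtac
Ighg2c, chr12:113287392-113287445: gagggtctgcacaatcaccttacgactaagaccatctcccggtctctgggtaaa

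Among the lambda genes Iglc2 and Iglc3 are close copies, which bears on how well their values can be separated, while Iglc1 stands further off. The first 90 bases of the constant exon from its first CAG codon are shown, with the 21 positions at which Iglc1, Iglc2 and Iglc3 are not all alike in capitals.
Iglc1, chr16:19061980-19062069: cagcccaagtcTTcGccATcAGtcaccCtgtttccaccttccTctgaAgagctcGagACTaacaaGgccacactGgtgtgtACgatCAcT
Iglc2, chr16:19198761-19198850: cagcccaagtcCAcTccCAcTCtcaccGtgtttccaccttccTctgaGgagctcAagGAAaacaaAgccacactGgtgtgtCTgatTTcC
Iglc3, chr16:19065590-19065679: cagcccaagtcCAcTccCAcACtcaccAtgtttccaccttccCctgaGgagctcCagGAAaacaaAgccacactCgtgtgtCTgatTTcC
In this stretch Iglc1 differed from Iglc2 at 19 positions and Iglc3 from Iglc2 at 5. Over the coding sequence Iglc2 and Iglc3 were 96.2% identical and Iglc1 and Iglc2 73.4%. The value of Iglc2 is therefore uncertain against that of Iglc3, with 92.3% of its 50-base stretches its own, while every 50-base stretch of Iglc1 was found in that gene only.

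Most antibody transcripts were lower in the running mice, and IgA went the other way. Of the 10 genes, 7 were called lower (Ighm, Ighg2b, Ighg2c, Ighg3, Igkc, Iglc1 and Iglc2) and 1 higher (Igha), while Ighd and Ighg1 were not called. Over all tested genes 0.941% were called, 0.497% lower and 0.445% higher. The 8 calls also had intervals that did not overlap between the groups, which held together with q under 0.05 for 0.445% of all tested genes, 0.322% lower and 0.123% higher. All 8 were also called with q under 0.01, as were 0.696% of all tested genes, and no further member was called with q under 0.1, which 1.23% of all tested genes met. A call together with a log2 fold of -1 or lower was met by 4 of the 10 genes (Ighm, Ighg2c, Ighg3 and Iglc1) and by 0.355% of all tested genes. The median log2 fold of the 10 genes was -0.83, against -0.01 over all tested genes. Summed over the 10 genes, the level was 2035 FPKM in running and 3438 FPKM in sedentary mice, or 0.354% and 0.580% of all FPKM. In bulk RNA, fewer cells of a type and less RNA per cell cannot be told apart. Since each group has 1 pooled value, the part of a single mouse in any of these differences could not be measured.

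**Figure D1:**
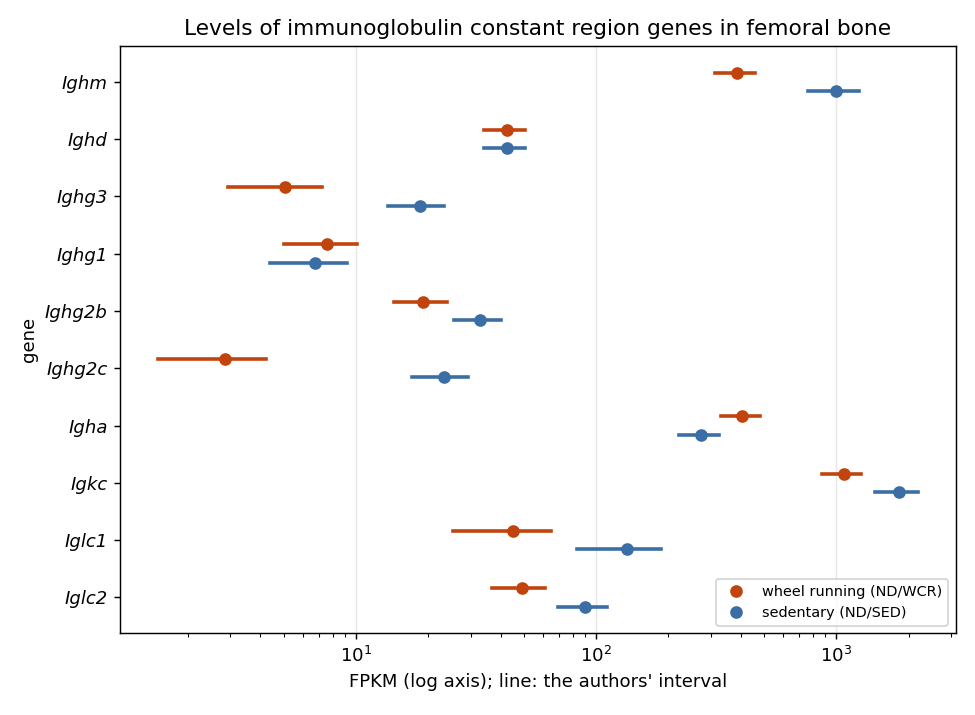
FPKM of the 10 genes in running (upper point of each gene) and sedentary mice (lower point), on a log axis, with the authors' interval as a line. The intervals overlap only for Ighd and Ighg1, and Igha alone has its running value above the sedentary interval.

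Ighm encodes the mu heavy chain, which naive B cells carry on their surface and plasma cells secrete as pentameric IgM. Its level was 385 FPKM (interval 313 to 458) in running mice and 1001 FPKM (763 to 1240) in sedentary mice. The log2 fold was -1.38, so that 38.5% of the sedentary level was measured in running mice, with q of 0.00718 in the authors' deposited table. That q is the smallest the table holds, is shared by 108 genes, and is that of all 8 calls, so it does not rank them. Ighm ranked 187 among all genes by FPKM in running mice and 69 in sedentary mice.

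Ighd encodes the delta heavy chain, which mature naive B cells carry beside IgM and which is transcribed together with Ighm. It stood at 42.5 FPKM in both groups, with an interval of 34.2 to 50.8 in running and 34.3 to 50.7 in sedentary mice. Its log2 fold was -0.00092, with q of 0.9997 in the authors' deposited table. With both genes at opposite bounds, the data allowed a log2 difference from -0.57 to 0.57 for Ighd. The ratio of Ighm to Ighd was 9.07 in running mice (6.16 to 13.4 with both genes at opposite bounds of their intervals) and 23.6 in sedentary mice (15.0 to 36.2). These ranges did not overlap.

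The IgG genes encode the gamma heavy chains, the main antibody of serum after an immune response, and IgG2c is the form that C57BL/6 mice have in place of the IgG2a of other strains. Ighg2c stood at 2.86 FPKM (1.504 to 4.21) in running mice and 23.2 FPKM (17.2 to 29.2) in sedentary mice, an 8.11-fold difference and a log2 fold of -2.98. It had the lowest fold of the 10 genes and the 16th lowest of the 14488 tested genes with at least 1 FPKM in a group. Ighg3 was at 5.08 FPKM (2.93 to 7.22) in running and 18.4 FPKM (13.6 to 23.3) in sedentary mice, a log2 fold of -1.84. Both genes were low in level, and their running values rested on about 120 and 200 fragments by an estimate from the steps between the lowest FPKM values.

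Ighg2b fell less far, to 19.1 FPKM (14.4 to 23.8) in running mice, against 32.8 FPKM (25.5 to 40.1) in sedentary mice, a log2 fold of -0.78. Ighg1 was not called, at 7.57 FPKM (5.02 to 10.1) in running and 6.78 FPKM (4.38 to 9.17) in sedentary mice. In the authors' deposited table it had q of 0.9997, and its bounds allowed a log2 difference from -0.86 to 1.19. The ratio of Ighg2b to Ighg2c was 6.68 (3.41 to 15.8) in running and 1.41 (0.873 to 2.33) in sedentary mice, so the 2 most alike IgG genes did not keep the same proportion between the groups. Within the summed IgG genes Ighg2c made up 8.26% in running and 28.6% in sedentary mice, and Ighg3 14.7% and 22.7%. In the same order, Ighg2b made up 55.2% and 40.4%, and Ighg1 21.9% and 8.34%. Ranges were taken with each gene and the other IgG genes at opposite bounds. For Ighg2c they were 3.53% to 15.9% in running and 19.1% to 40.2% in sedentary mice and did not overlap. For Ighg1, Ighg2b and Ighg3 the ranges of the groups overlapped. The difference between the folds of single genes was not tested.

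Igha encodes the alpha heavy chain of IgA, the antibody of mucosal secretions, which marrow plasma cells also make. Its level was 406 FPKM (331 to 481) in running mice and 273 FPKM (221 to 325) in sedentary mice. That is a 1.49-fold higher level in running mice, a log2 fold of 0.57, with q of 0.00718 in the authors' deposited table. The bounds were apart by little, and with both at their nearest the log2 fold was 0.03. Igha had the 351st highest fold of the 14488 genes. Ighe, which encodes the heavy chain of IgE, was listed at 0 in both groups and was not tested by the authors.

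**Figure D2:**
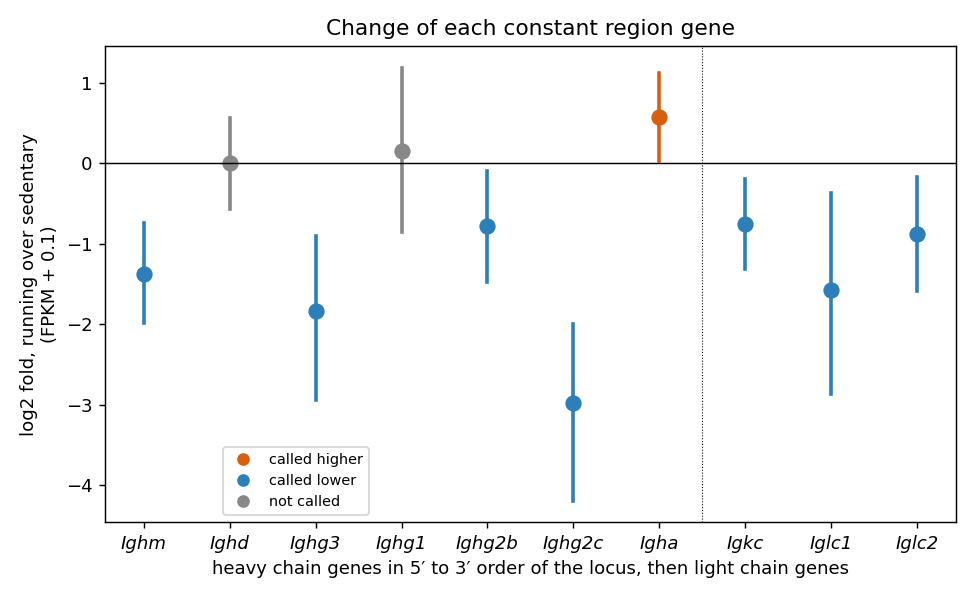
Log2 fold (running over sedentary, FPKM + 0.1) of the heavy chain genes in the order of their locus and of the light chain genes, with lines that join the folds at opposite bounds of the authors' intervals. The points run from -2.98 (Ighg2c) to 0.57 (Igha), and neighbours on the locus such as Ighm and Ighd, or Ighg3 and Ighg1, lie apart.

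The makeup of the heavy chain transcripts by class differed between the groups. IgM made up 44.4% of the summed heavy chain FPKM in running mice and 71.6% in sedentary mice, and IgA 46.8% and 19.5%. With the class at one bound and the others at the opposite bound, the IgM share ranged from 35.1% to 54.05% in running and from 61.5% to 79.7% in sedentary mice, and the IgA share from 37.4% to 56.5% in running and from 13.7% to 27.4% in sedentary mice. Neither pair of ranges overlapped. The ratio of Igha to Ighm was 1.05 in running (0.724 to 1.54) and 0.273 in sedentary mice (0.179 to 0.425). IgD made up 4.89% in running and 3.04% in sedentary mice and IgG 3.98% and 5.81%, and for both the ranges of the groups overlapped. These shares describe 1 pooled value per group and carry no test.

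**Figure D3:**
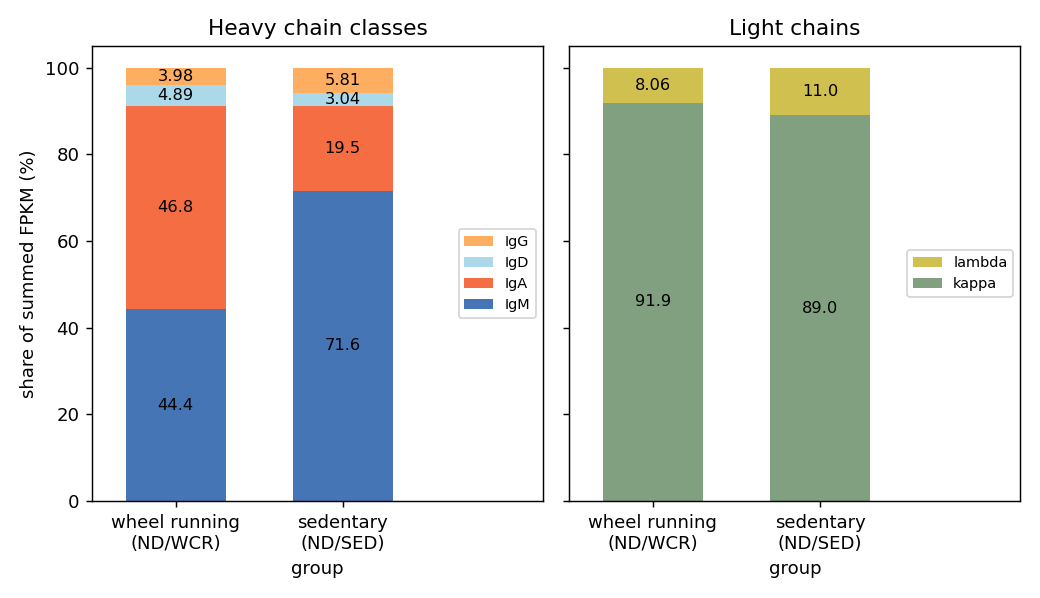
Share of each heavy chain class (left) and light chain (right) in the summed FPKM of its chain, in percent, for running and sedentary mice. Lambda is Iglc1 plus Iglc2, without Iglc3. IgA and IgM hold 46.8% and 44.4% in running mice, against 19.5% and 71.6% in sedentary mice, while kappa holds most of the light chain in both groups.

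All 3 light chain genes were called lower. Igkc, the single kappa constant gene and the highest of the 10, stood at 1073 FPKM (874 to 1272) in running and 1815 FPKM (1452 to 2179) in sedentary mice, a log2 fold of -0.76. It ranked 54 among all genes in running and 21 in sedentary mice. Iglc1 stood at 45.0 FPKM (25.4 to 64.6) in running mice and 134.7 FPKM (83.5 to 186) in sedentary mice, a log2 fold of -1.58. Iglc2 was at 49.1 FPKM (36.7 to 61.5) in running and 90.01 FPKM (69.3 to 111) in sedentary mice, a log2 fold of -0.87. Iglc3, which is not among the 10, was not called, at 38.3 FPKM (19.1 to 57.5) in running and 57.9 FPKM (24.0 to 91.9) in sedentary mice, with the widest relative interval of the lambda genes. Iglc4 was listed at 0 in both groups. The transcripts of Igkc, Iglc1 and Iglc2 are short, 454 to 606 bases, and the FPKM of a short transcript depends on the fragment length assumed, which is not known here.

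Lambda, taken as Iglc1 plus Iglc2, made up 8.06% of the light chain FPKM in running and 11.0% in sedentary mice. The ranges from the bounds were 4.66% to 12.6% and 6.55% to 17.0% and overlapped. With Iglc3 and Iglc4 added to lambda, the share was 10.98% in running and 13.5% in sedentary mice. The ratio of kappa to Iglc1 plus Iglc2 was 11.4 in running (6.93 to 20.5) and 8.08 in sedentary mice (4.89 to 14.3). Iglc1 was below Iglc2 in running mice and above it in sedentary mice, with ratios of 0.917 in running and 1.496 in sedentary mice, but their intervals overlapped within each group. The lambda V segments that precede these genes were also lower: Iglv1 stood at 96.8 FPKM (63.2 to 130) in running and 279 FPKM (185 to 372) in sedentary mice, and Iglv2 at 18.9 FPKM (9.69 to 28.2) and 81.0 FPKM (55.2 to 107), each with q of 0.00718 in the authors' deposited table. Iglv3, at 6.32 FPKM in running and 11.9 FPKM in sedentary mice, was not called. Sums were also taken over the segments annotated as V genes in GENCODE M21, with other annotated types left out. For the heavy chain (113 segments, 91 tested) the sum was 819 FPKM in running and 1530 FPKM in sedentary mice. It was 1115 and 2257 FPKM for kappa (100 segments, 87 tested), and 122 and 372 FPKM for lambda (3 segments, 3 tested). Many V segments are close copies, and the sums avoid only part of that uncertainty.

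Heavy and light chains stood in similar proportion, with ranges that overlapped. Over the 10 genes, the ratio of summed heavy to summed light chain FPKM was 0.744 in running (0.502 to 1.11) and 0.685 in sedentary mice (0.436 to 1.07). Jchain, the joining chain gene, was itself called lower, at 104 FPKM (84.4 to 123) in running and 169 FPKM (137 to 201) in sedentary mice. Its ratio to the sum of Ighm and Igha, the classes it links, was 0.131 (0.0899 to 0.191) in running and 0.132 (0.0874 to 0.204) in sedentary mice. For Igkc the ratio to Jchain was 10.4 in running (7.12 to 15.1) and 10.8 in sedentary mice (7.24 to 15.9). Igha stood at 3.92 times Jchain in running mice (2.70 to 5.70) and at 1.62 times in sedentary mice (1.104 to 2.37), ranges that did not overlap. For Ighm the ratio to Jchain was 3.72 (2.55 to 5.42) in running and 5.94 (3.81 to 9.06) in sedentary mice, with ranges that did.

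**Figure D4:**
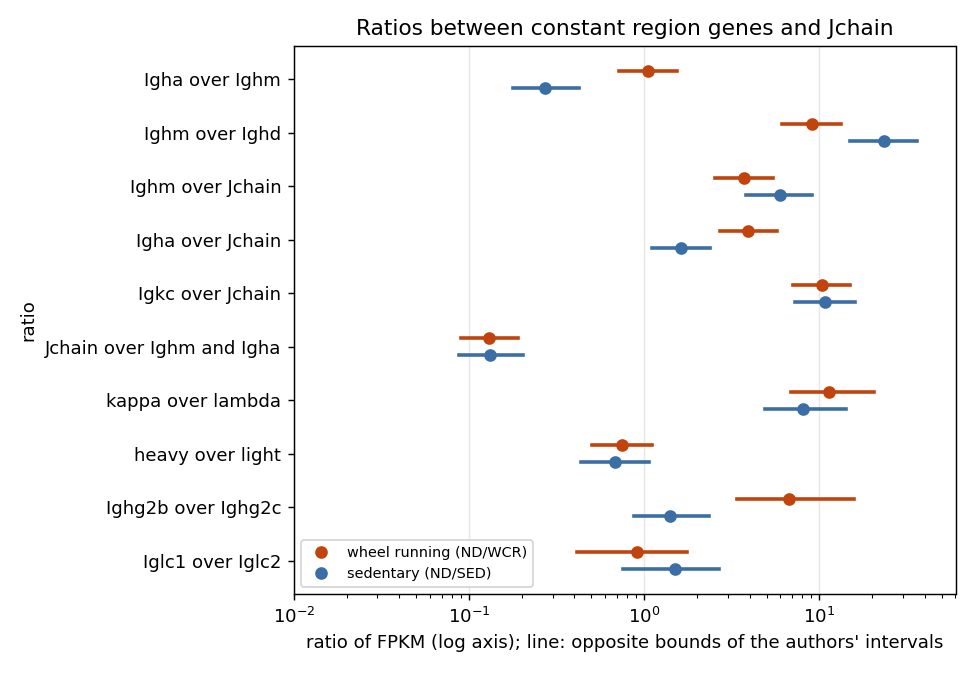
Ratios of FPKM between constant region genes and Jchain in running (upper point) and sedentary mice (lower point), on a log axis, with lines from the opposite bounds of the authors' intervals. The ratios of Igha to Ighm, Ighm to Ighd, Igha to Jchain and Ighg2b to Ighg2c have lines that do not overlap between the groups, and those of heavy to light chain, of Igkc to Jchain and of Jchain to Ighm plus Igha nearly coincide.

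The order of the levels within a group showed the same shift. In running mice the order was Igkc, Igha, Ighm, Iglc2, Iglc1, Ighd, Ighg2b, Ighg1, Ighg3 and Ighg2c, and the intervals of Igha and Ighm, of Iglc2, Iglc1 and Ighd, and of Ighg1, Ighg3 and Ighg2c as neighbours overlapped. In sedentary mice it was Igkc, Ighm, Igha, Iglc1, Iglc2, Ighd, Ighg2b, Ighg2c, Ighg3 and Ighg1, with overlapping neighbours in Iglc1 and Iglc2 and in the run from Ighd to Ighg3. Ighm lay above Igha with separate intervals in sedentary mice, and in running mice the 2 could not be separated.

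Among other genes of the cells that make, switch or bind antibody, 1 was called. Over all tested genes 0.941% were called, and 8028 of 15508 log2 folds were negative. Of 14 tested partners of secreted antibody and plasma cell genes, Jchain was the 1 call, lower, and 13 of the 14 log2 folds were negative, with a median of -0.21. Xbp1, the transcription factor of the secretory programme, stood at 83.0 FPKM in running and 93.8 FPKM in sedentary mice, and Tent5c, a poly(A) polymerase of plasma cells, at 102 and 108 FPKM, both uncalled. None of 20 B lineage genes was called, with a median of -0.15 and 18 negative folds. Their best expressed members, Cd79a and Cd79b, the signalling chains of the B cell receptor, were at 94.2 and 86.3 FPKM in running mice and at 101 and 96.5 FPKM in sedentary mice.

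No call was made among 13 tested class switch genes (median 0.01), 10 tested antibody receptors (median -0.14) or 14 tested switch and survival signals (median -0.13). Msh6, a mismatch repair gene used in switching, stood at 24.5 FPKM in running and 24.3 FPKM in sedentary mice, and Apex1, which encodes an endonuclease, at 40.4 and 39.9 FPKM. Of the receptors, Fcer1g, the shared Fc receptor gamma chain, was at 245.5 FPKM in running and 271 FPKM in sedentary mice and Fcgr3, a low-affinity IgG receptor, at 81.8 and 90.4 FPKM. Cxcl12, the stromal chemokine that retains plasma cells in marrow, stood at 973 FPKM in running and 860 FPKM in sedentary mice and its receptor Cxcr4 at 156 and 159 FPKM. Over these lists a miss of the threshold does not show that the genes were unchanged.

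**Figure D5:**
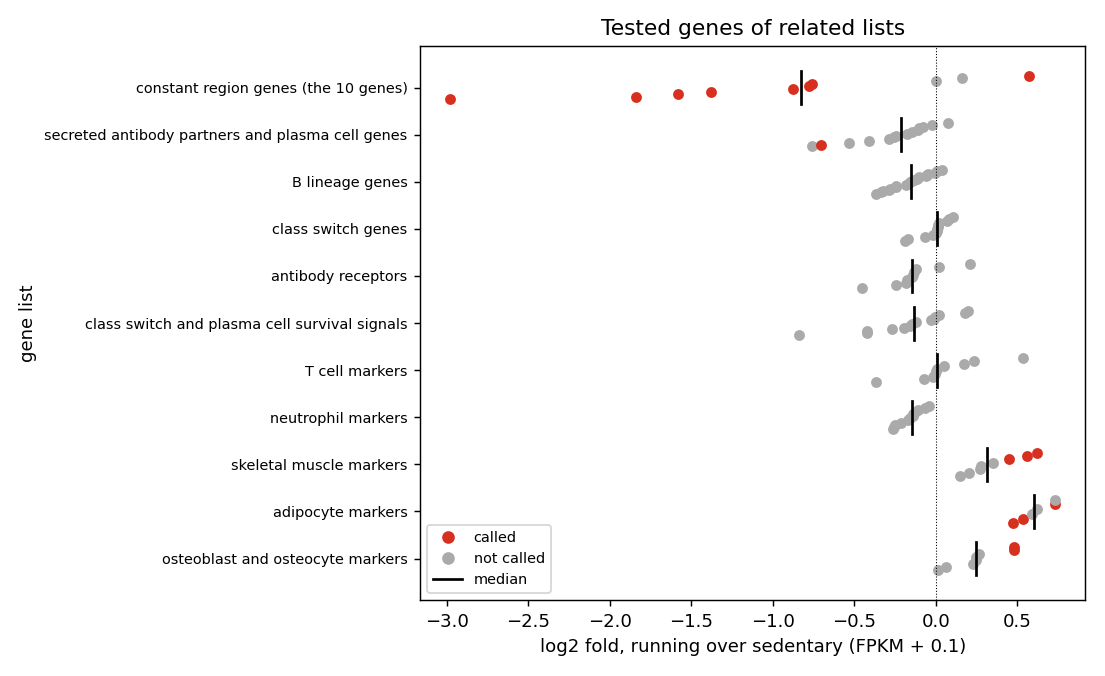
Log2 fold (running over sedentary, FPKM + 0.1) of every tested gene of the 10 constant region genes and of the other lists, with called genes in red and the list median as a black bar. The constant region genes have a median of -0.83, the B lineage genes of -0.15 and the plasma cell genes of -0.21.

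Markers of some other tissues also differed between the groups. Over all tested genes 0.445% were called higher and 0.497% lower, and 7480 of 15508 log2 folds were positive. All 8 muscle markers had positive folds (median 0.32, summed 1682 FPKM in running and 1372 FPKM in sedentary mice), and Myh1 (44.1 and 28.6 FPKM), Myh2 (45.9 and 31.1 FPKM) and Tcap (129.9 and 94.95 FPKM), given for running and then sedentary mice, were called higher. Adipocyte markers had a median of 0.60 over 6 tested genes (summed 451 FPKM in running and 306 FPKM in sedentary mice), and Cfd, Fabp4 and Adipoq were called higher, at 64.8, 319 and 55.8 FPKM in running mice and 39.0, 220 and 40.2 FPKM in sedentary mice. The 8 osteoblast and osteocyte markers, which check the labelled tissue, summed to 5830 FPKM in running and 5530 FPKM in sedentary mice, and Sost (66.2 FPKM in running and 47.4 FPKM in sedentary mice) and Mepe (137 and 98.4 FPKM) were called higher. Neutrophil markers summed to 46731 FPKM in running and 54775 FPKM in sedentary mice, with 12 of 12 folds negative (median -0.15) and no call. T cell markers, summing to 38.8 FPKM in running and 38.2 FPKM in sedentary mice, had a median of 0.01 and no call among 10. Whether the tissue makeup itself shifted, and what part this had in the immunoglobulin differences, was not tested.

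A search by log2 fold covered the tested genes outside the immunoglobulin loci with at least 1 FPKM in both groups. Nearest to Ighm were Zfp691 (-1.38), Gm43555 (-1.38) and Gm49207 (-1.39). Their levels were 2.76, 1.37 and 1.61 FPKM in running mice and 7.34, 3.73 and 4.37 FPKM in sedentary mice, and none was called. A likeness over 2 pooled group values holds little information.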

How the data were processed

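Per the labels, polyA RNA was isolated with TRIzol, and a directional kit was used for the libraries. Tools and build listed in the submitters' processing notes, without role or setting, were GRCm38, Cufflinks 2.2.1, SAMtools 1.10, HISAT2 2.2.1 and Trimmomatic 0.39. For each group the authors deposited an FPKM with the lower and upper bound of its interval, per the file headers. Their comparison was deposited as a log2 fold, a test statistic (a score), a p-value and a q-value, per the file headers. Recomputing q from p with the Benjamini-Hochberg method over the 15508 tested genes gave values within 5.21e-07. The tables hold 0 columns of single libraries, so no test between mice was possible and the calls are the authors'. The design text counts 3 mice in each group.

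Folds, sums, shares and ratios were computed from the group FPKM with Python 3.11.15 and pandas 2.3.3, and ranges by setting the values at opposite bounds. Genes without an estimate (5) were left out of totals. Coordinates and sequences are those of GENCODE M21, and identities come from global alignment (Biopython 1.88). Adjustment and fold code was tested on simulated data. From the steps between the lowest FPKM of single-exon genes, library sizes of about 17300000, 17200000 and 13800000 fragments (running) and 16400000, 14500000 and 14300000 fragments (sedentary) were estimated, on the assumption that each group FPKM averages 3 libraries after scaling. Fragment numbers per gene follow from these, from the shortest transcript and from a fragment length of 250 bases, and are approximate.

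The 10 genes and the other lists were chosen with earlier results of these data known. Named were all 10 genes, the remaining constant genes, and the 3 genes nearest to Ighm in fold among those with at least 1 FPKM in both groups. Of each list discussed, the called members (at most 4) and the 2 best expressed uncalled members were also named. The V segments, the overlapping noncoding genes and the list members in the closing observations fall outside that rule and were chosen after their values were seen. For the marker lists, the sums cover every member found, called or not, and uncalled members are not named. 1 gene of the class switch list is not reported here by name.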

Additional observations from a re-analysis of the deposited data

How the results depend on the processing

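No paired analysis was possible because single mice have no columns of their own. Leaving out each mouse and the fit with a replicate block were therefore not run. The 8 calls (1 higher, 7 lower) numbered 8 with q under 0.01, with q under 0.1, with q recomputed over genes of at least 1 FPKM and with separate intervals, all of which reuse the authors' test. A minimum absolute log2 fold of 1 left 4, all lower, by its construction. The median log2 fold of -0.83 lay between -0.83 and -0.67 under the other pseudocounts and scalings, and at -0.12 relative to Jchain, which fell itself. Relative to Jchain the log2 fold of Ighd was 0.70, against -0.00092, and Ighd turned positive under all 5 scalings. Shares of IgA and IgM kept the sign of their difference under every alternative that gave one. That of IgD, 1.85 percentage points (running minus sedentary), was -1.92 without Ighm and -1.27 at the least favourable bounds, and that of IgG, -1.82 points, was -13.3 without Ighm and 2.65 at such bounds. The lambda share difference of -2.95 points was -2.49 with Iglc3 and Iglc4 and 6.05 at such bounds. Calls in the other lists, the tissue marker lists included, numbered 9 of 116 tested genes, against 0.941% of all tested genes. Of these, 8 were higher, all in the muscle, adipocyte and bone marker lists, and 1 was lower, Jchain. With q under 0.1 they numbered 10, against 1.23% of all tested genes, and with q under 0.01 they numbered 8, against 0.696%.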

Other observations

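Among the plasma cell genes that were not called, Mzb1, a chaperone of antibody assembly, stood at 19.6 FPKM in running and 28.4 FPKM in sedentary mice and Derl3, a gene of protein quality control, at 1.99 and 3.44 FPKM. Irf4, a regulator of plasma cell fate, was at 10.2 FPKM in running and 13.5 FPKM in sedentary mice, with q of 0.0857 in the authors' deposited table, and Sdc1, a surface marker of plasma cells, at 21.07 FPKM in running and 19.96 FPKM in sedentary mice. Mzb1, Derl3 and Sdc1 had q of 0.336, 0.916 and 0.9997 in the authors' deposited table. For each of these genes and for Irf4 the intervals of the groups overlapped. Other uncalled members had log2 folds nearer 0, such as Ell2 (-0.02) and Txndc5 (-0.10), or further below it, such as Slamf7 (-0.25) and Fkbp11 (-0.29). All of these genes were picked after their values were seen. Pigr, which carries polymeric IgA across epithelia, stood at 0.0188 FPKM in running and 0.0411 FPKM in sedentary mice, and was not tested by the authors.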
